A study of Mus musculus with 2 samples.

Results

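The genes described here are the histone genes, as they appear in the 3′ end tags of mouse skin epithelium. They were taken by name: 85 gene IDs have a symbol that starts with Hist1 to Hist4, H2af, H3f or H1f, out of 27998 genes listed. Members were then selected on their counts as those with at least 20 unique molecular identifiers (UMIs) over both libraries in the kept cells, and 59 passed: 7 linker, 44 core and 8 replication-independent genes. The 25 histone IDs under the minimum held at most 19 UMIs each, 7 of them held 0, and *H3f3aos*, an antisense transcript of *H3f3a* with 9 UMIs, was set apart. *Hist1h3h* and *Hist1h2bf* lay just inside the minimum with 22 UMIs each, and *Hist1h3g* and *Hist1h2bh* lay just outside it with 19 UMIs each. A gene can pass through the library where it is high, so the members that passed do not stand for all histone genes.

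The study compared skin epithelium with and without the m6A methyltransferase METTL3. The control library came from *Mettl3* fl/+ embryos that carried Rosa16-YFP fl/+ and K14Cre, and the cKO library from *Mettl3* fl/fl embryos with the same YFP allele and K14Cre, both of strain C57BL/6 at embryonic day 17 (E17). Rosa16 is the spelling of the sample labels, and the paper names this allele Rosa26-YFP. The control is thus heterozygous for the floxed *Mettl3* allele and carries Cre as well. Cre is driven by the promoter of *Krt14*, a keratin gene of basal epithelial cells, and YFP+ cells of back skin were sorted. A further gate on surface integrins enriched them for progenitors, so shares of cells below are those of this sorted fraction. How many embryos went into a library is not given in the sources used here.

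Histones package DNA. Pairs of the core histones H2A, H2B, H3 and H4 form the nucleosome, and the linker histone H1 binds where DNA enters and leaves it. Replication-dependent histone genes lie in clusters, are expressed mainly while DNA is copied, and end in a stem-loop that is cut under the control of the stem-loop binding protein SLBP, so that most of their mRNA has no poly(A) tail. Replication-independent histones, such as H3.3 (*H3f3a* and *H3f3b*) and H2A.Z (*H2afz* and *H2afv*), are made as ordinary polyadenylated mRNA throughout the cycle. A method that primes on poly(A), as here, records the replication-dependent genes mainly through the share of transcripts that do carry a tail, and whether a given UMI came from such a tail was not tested.

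The stem-loop that ends the replication-dependent message is shown for members on which the results turn, because their annotated transcripts, except that of *Hist1h2ap*, run well past it. *Hist1h2bc*, on which the core sum also turns, has no stem-loop in its annotated transcript and is not shown. Each line gives the loop in capitals with its flanking bases, 5′ to 3′, read on the strand of the gene from GENCODE vM21 transcripts on GRCm38.
Hist3h2a: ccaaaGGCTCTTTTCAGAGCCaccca
Hist3h2ba: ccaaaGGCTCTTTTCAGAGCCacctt
Hist1h1c: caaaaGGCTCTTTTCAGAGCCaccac
Hist1h2ap: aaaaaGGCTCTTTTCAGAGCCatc
Hist1h4i: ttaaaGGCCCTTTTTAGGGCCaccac
H2afx: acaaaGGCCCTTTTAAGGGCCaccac
The search used the histone stem-loop consensus, 16 bases long, on the transcribed strand only, and 0.310% of 21901 protein coding genes had a match. Of the members, 31 core and 3 linker genes had one, and so did *H2afx*, which is grouped here with the replication-independent genes by its name. The loop of *Hist3h2a*, *Hist3h2ba*, *Hist1h1c* and *Hist1h2ap* is the same 16 bases and is shared by 24 histone genes, 19 of them members. The longest transcript of *Hist3h2a* goes on for 1643 bases past the loop, that of *Hist1h1c* for 840 bases, that of *H2afx* for 822, that of *Hist1h4i* for 330, that of *Hist3h2ba* for 169 and that of *Hist1h2ap* for 3 bases. *Hist3h2a* (ENSMUSG00000078851) lies on chromosome 11 from 58954685 to 58956830, next to *Hist3h2ba* (ENSMUSG00000056895) at 58948920 to 58949533. *Hist1h1c* (ENSMUSG00000036181) lies on chromosome 13 from 23738808 to 23740367, and *H2afx* (ENSMUSG00000049932) on chromosome 9 from 44334694 to 44336077.

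A barcode counted as a cell where it held 1800 genes or more, the limit used in the study. The control library had 4447 such cells and 43874554 UMIs in them, the cKO library 3577 and 34116275, and 16 barcodes occur in both. The paper reports somewhat fewer cells for each library, so the sets of cells are not identical. Levels are given as CPM, the UMIs of a gene per 1000000 UMIs of the same sum. Each RNA molecule is tagged at 1 end, so CPM was not scaled by gene length. With 1 library per condition no test between conditions is possible, and every 95% interval covers counting error only, not the spread between embryos. A member is counted as higher or lower when its CPM differs by at least 1.5-fold. *Mettl3* itself had 12.7 CPM in the control library against 6.18 CPM in cKO, but 3′ tags do not measure the deletion of the floxed exon. *Xist* had 2040.4 CPM in the control library against 0.0293 CPM in cKO, and the Y-linked gene *Ddx3y* had 0 and 44.6 CPM, so sex and genotype cannot be told apart for any value below. The basal keratin gene *Krt14* was present in both libraries, at 7771 and 5336 CPM.

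Among the linker histones, *Hist1h1c* differed widely between libraries, *Hist1h1a* less so from few UMIs, and the others little. *Hist1h1c*, which encodes the linker histone H1.2, had 85.0 CPM (82.3 to 87.8) in the control library against 28.0 CPM (26.2 to 29.8) in cKO, from 3729 and 955 UMIs. Its cKO to control ratio was 0.329 (0.306 to 0.354), and the intervals of the libraries lie far apart. In such sums over cells, fewer cells with a transcript and less of it per cell cannot be told apart. *H1f0*, which encodes the replacement linker histone H1.0 known from differentiated and resting cells, had 421.5 CPM in the control library against 421.5 CPM in cKO, a ratio of 1.00 (0.978 to 1.02). *H1fx*, which encodes another replacement linker histone, had 88.9 CPM in both libraries. Of the remaining replication-dependent linker genes, *Hist1h1a* (H1.1) had 6.29 and 3.93 CPM, a ratio of 0.624 (0.504 to 0.770). *Hist1h1d* (H1.3) had 6.61 and 5.31 CPM with a ratio of 0.803 (0.663 to 0.970). *Hist1h1b* (H1.5) had 31.0 and 27.1 CPM with a ratio of 0.874 (0.803 to 0.951), and *Hist1h1e* (H1.4) had 36.8 and 33.6 CPM with a ratio of 0.914 (0.846 to 0.986). These 4 genes together had a ratio of 0.867 (0.822 to 0.913). The summed level of all 7 linker members had a ratio of 0.900 (0.884 to 0.916), and without *Hist1h1c* the ratio was 0.982 (0.964 to 1.00), so that 1 gene accounts for most of the lower sum.

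Core histones were lower in cKO cells as a sum, and the sum rested on few genes. *Hist3h2a*, an H2A gene, had 65.7 CPM (63.3 to 68.1) in the control library against 18.5 CPM (17.1 to 19.97) in cKO, from 2882 and 630 UMIs, a ratio of 0.281 (0.257 to 0.307). Its neighbor *Hist3h2ba*, an H2B gene, had 74.4 and 56.8 CPM with a ratio of 0.763 (0.721 to 0.807). The difference was thus much larger for the H2A than for the H2B gene of the same small cluster. *Hist1h2bc*, an H2B gene of the large cluster on chromosome 13, had 119.6 CPM in the control library against 74.4 CPM in cKO, from 5249 and 2539 UMIs, a ratio of 0.622 (0.593 to 0.652). *Hist1h4i*, an H4 gene, had 38.8 and 36.7 CPM and a ratio of 0.946 (0.879 to 1.02), an interval that includes 1. *Hist1h2ap*, an H2A gene, went the other way, with 9.05 CPM (8.18 to 9.98) in the control library against 19.3 CPM (17.9 to 20.9) in cKO, from 397 and 660 UMIs, a ratio of 2.14 (1.88 to 2.43). *Hist1h2ae*, also an H2A gene, had 4.85 and 7.45 CPM and a ratio of 1.53 (1.27 to 1.85), and 1.498 with TMM scaling, just under the 1.5-fold limit. The other core members with at least 200 UMIs lay between. Of the H2B genes, *Hist1h2bj* had 4.19 and 2.84 CPM (ratio 0.678) and *Hist2h2be* had 9.34 and 7.27 CPM (0.778). Of the H2A genes, *Hist1h2ag* had 3.99 and 3.11 CPM (0.779) and *Hist2h2ac* had 3.17 and 2.73 CPM (0.860). The H4 gene *Hist1h4d* had 4.51 and 4.02 CPM (0.890). Those above 1 were *Hist1h2al*, listed in GENCODE as a processed pseudogene, with 3.51 and 4.13 CPM (1.18), and the H3 gene *Hist1h3c* with 2.64 and 3.43 CPM (1.30). The counting intervals of *Hist2h2ac*, *Hist1h4d*, *Hist1h2al* and *Hist1h3c* included 1. The lowest ratio of any member was that of the H3 gene *Hist2h3c2*, 0.171 (0.0439 to 0.487), which rests on 30 control and 4 cKO UMIs.

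Replication-independent members differed less, with *H2afx* as the exception. *H2afx* encodes H2A.X, the histone that is phosphorylated at DNA breaks, and had 324 CPM (318 to 329) in the control library against 213 CPM (208 to 218) in cKO, a ratio of 0.658 (0.640 to 0.677). *H2afy*, which encodes the histone variant macroH2A1, had 259 and 199 CPM and a ratio of 0.766 (0.743 to 0.789), while *H2afy2*, which encodes macroH2A2, had 86.6 and 85.9 CPM and a ratio of 0.992. The genes of H3.3 are among the members with the most UMIs. *H3f3b* had 3239 and 2724 CPM, a ratio of 0.841 (0.834 to 0.848), and *H3f3a* had 2446 and 2222 CPM, a ratio of 0.909 (0.900 to 0.917). The genes of H2A.Z were close to equal or above, with 2367 and 2619 CPM of *H2afz*, a ratio of 1.11 (1.10 to 1.12), and 460.4 and 465 CPM of *H2afv*, a ratio of 1.01 (0.989 to 1.03). *H2afj*, which encodes H2A.J, had the highest ratio of this kind, 258 CPM in control against 319 CPM in cKO cells (1.24, 1.204 to 1.27). The sum of the 8 members had a ratio of 0.937 (0.933 to 0.941).

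**Figure D1:**
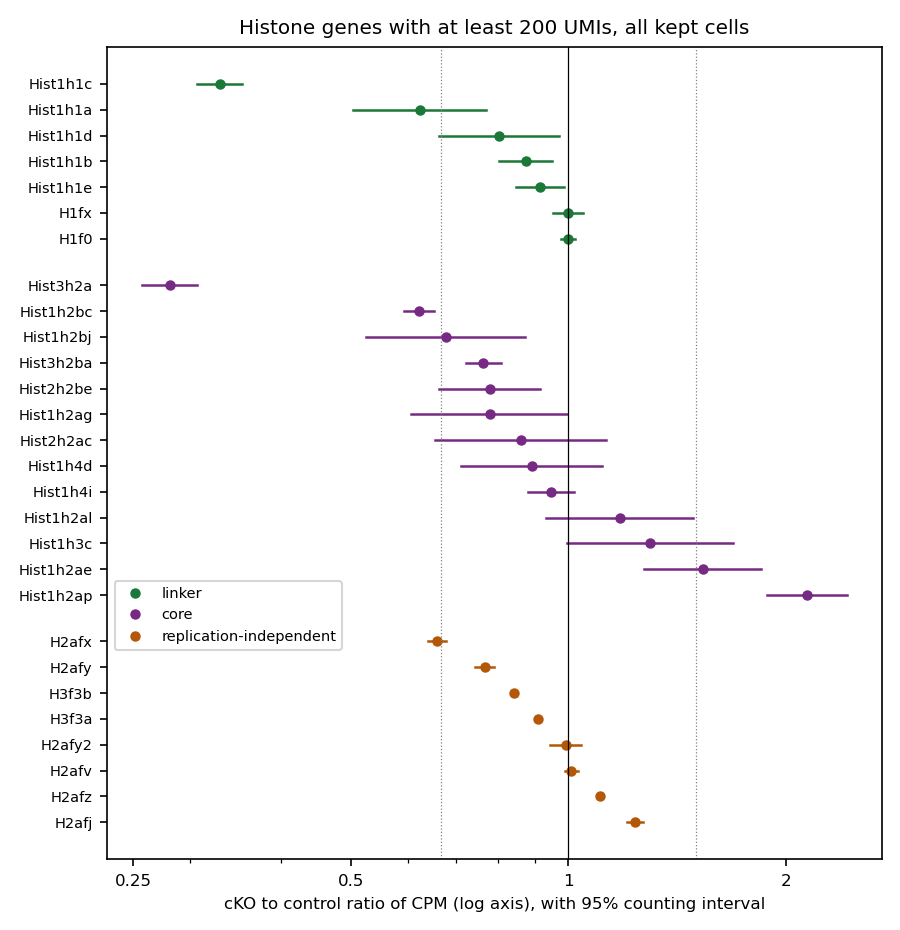
Ratio of cKO to control CPM on a log axis for the 28 members with at least 200 UMIs over both libraries, grouped as linker, core and replication-independent; points are ratios, bars 95% counting intervals, and dotted lines mark 1.5-fold. *Hist3h2a* at 0.281 and *Hist1h1c* at 0.329 stand far to the left, and *Hist1h2ap* at 2.14 lies farthest to the right.

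Counted over the 59 members, 16 were lower by at least 1.5-fold in cKO cells and 2 were higher. Over all 13184 genes with at least 20 UMIs, 4.51% were lower and 7.68% higher by that fold. Of the 16, 13 were core members, 2 linker members and 1 replication-independent. Among the 28 members with at least 200 UMIs, 5 were lower (*Hist3h2a*, *Hist1h1c*, *Hist1h2bc*, *Hist1h1a* and *H2afx*) and 2 were higher (*Hist1h2ap* and *Hist1h2ae*), beside 1.47% lower and 4.71% higher over all genes of that depth. The other 11 lower members each had fewer than 200 UMIs, and some of them share most of their sequence with other genes, as given below. The median log2 ratio was −0.19 for linker, −0.32 for core and −0.07 for replication-independent members, against 0.03 over all genes. Other scalings shifted every log2 ratio by between −0.034 (TMM) and 0.007 (totals without the most abundant genes).

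Among core histones the types differed. The H2A members together had 97.8 CPM in the control library against 62.3 CPM in cKO (ratio 0.637, 0.604 to 0.671), and the H2B members 218 and 148 CPM (0.681, 0.658 to 0.704). The H3 members had 11.1 and 8.94 CPM (0.807, 0.697 to 0.933), and the H4 members 49.1 and 46.9 CPM (0.955, 0.895 to 1.02). The H2A, H2B and H3 sums were thus lower in cKO cells, and the interval of the H4 sum included 1. The H2A sum was lower only through *Hist3h2a*: the other 11 H2A members had 32.1 and 43.8 CPM, a ratio of 1.36 (1.27 to 1.47). *Hist1h2ap* alone held 397 of the 1409 control and 660 of the 1494 cKO UMIs of these 11. Of the 11, 1 was lower and 2 were higher by 1.5-fold, so the higher sum does not stand for each gene. All 44 core members together had 376 and 266 CPM, a ratio of 0.709 (0.691 to 0.727). The 4 most abundant core members by UMIs, *Hist1h2bc*, *Hist3h2ba*, *Hist3h2a* and *Hist1h4i*, held 79.5% of the core UMIs in control and 70.0% in cKO cells. These 4 had a ratio of 0.624 (0.606 to 0.643), and the other 40 members together had 77.2 and 80.0 CPM, a ratio of 1.04 (0.985 to 1.09). Of these 40, 11 were lower and 2 higher by 1.5-fold, and without *Hist1h2ap* the sum had a ratio of 0.890 (0.841 to 0.941). These splits were chosen after the values were seen.

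**Figure D2:**
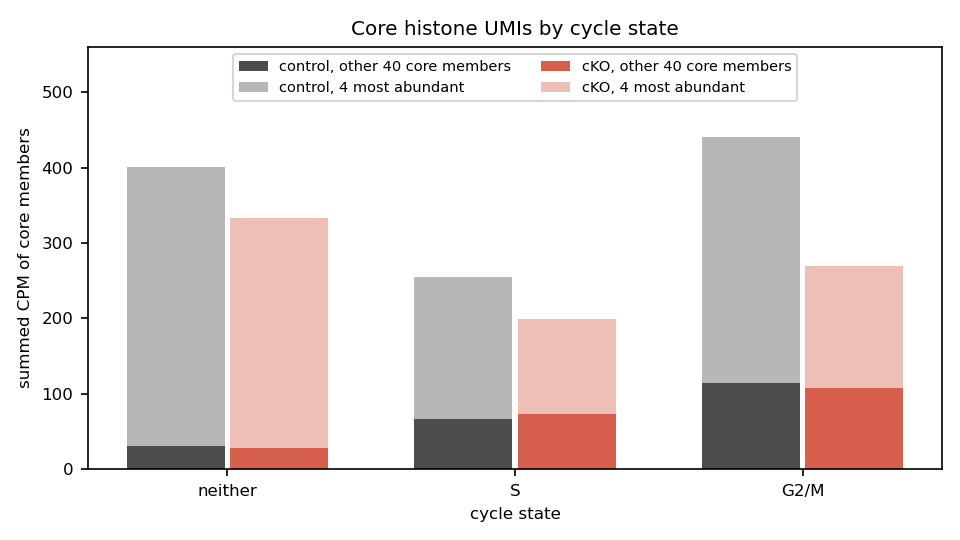
Summed CPM of the 44 core members by cycle state in control (grey) and cKO (red) cells; the pale part of each bar is the sum of *Hist1h2bc*, *Hist3h2ba*, *Hist3h2a* and *Hist1h4i*, and the solid part is the sum of the other 40 members. The solid parts are close in height between libraries in each state, at 114 and 107 CPM in the G2/M range, while the pale parts are lower in cKO cells, at 327 and 163 CPM there.

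Cells were then divided by scores for S and for G2 and M genes, none of them a histone gene. A cell belongs to the S range or the G2/M range where that score is above 0 and the higher of the pair, and to neither where both scores are below. The control library had 1423 cells in neither, 1333 in S and 1691 in G2/M, and the cKO library had 1012, 964 and 1601. The G2/M range thus held 38.0% of control and 44.8% of cKO cells, and 39.0% and 46.1% when each cell was thinned to 5500 UMIs, which left out 172 and 244 shallower cells. These are ranges of a score and not cell types: 55.2%, 35.9% and 20.9% of the control cells of these ranges lay within 0.05 of a boundary. Genes held out of the scores followed the names, with 6 S genes at 183, 791 and 292 CPM and 6 G2/M genes at 31.9, 142 and 822 CPM over the same ranges in control. In cKO cells the same S genes had 186, 726 and 247 CPM, and the G2/M genes 25.6, 134 and 690 CPM. Each set was thus lower in cKO cells in its own range. A range may therefore hold an unlike mix of cells in the libraries, and how far that enters the ratios within a range was not tested. The median depth was 7556, 9177 and 10485 UMIs per cell in control and 7088, 8519.5 and 10090 in cKO. Since cells of 1 library are not replicates, the ratios between ranges are descriptions.

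Over all kept cells, most histone genes were higher in the S and G2/M ranges than in neither, and among those with at least 200 UMIs the level in G2/M mostly exceeded that in S. These sums mix cell classes. In Epi basal-like cells alone, a class described below, fewer of the members with at least 200 UMIs were higher in S, as given at the end. In control, 35 of the 58 members that gave a ratio were higher in S than in neither by at least 1.5-fold and 6 were lower, beside 11.8% and 11.1% of all genes. In cKO cells, 25 of 49 members were higher and 8 lower, beside 11% and 13.4%. By kind, 4 of 7 linker, 29 of 43 core and 2 of 8 replication-independent members were higher in S in control, and 3 of 7, 20 of 34 and 2 of 8 in cKO cells. The replication-independent members past the limit were *H2afx* and *H2afz* in both libraries. Between G2/M and neither, 45 of 59 members were higher and 5 lower in control (10.3% and 14.9% of all genes), and 38 of 57 were higher and 5 lower in cKO cells (10.2% and 15.1%). Of the 28 members with at least 200 UMIs, 27 had more CPM in G2/M than in S in control and 26 in cKO cells. The exceptions were *H2afy2* in both libraries and *Hist1h1a* in cKO cells, where 4.94 CPM in S and 4.70 CPM in G2/M lie within counting error. No share over all genes was taken for G2/M against S, so these counts do not set histone genes apart from other genes.

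The linker genes showed opposite patterns. In control, *Hist1h1b* had 4.52 CPM in neither, 29.4 CPM in S and 48.6 CPM in G2/M, and in cKO cells 4.38, 27.4 and 37.3 CPM. *Hist1h1e* had 12.6, 29.1 and 57.2 CPM in control and 12.7, 26.7 and 46.8 CPM in cKO cells. Over all kept cells, both genes thus had nearly the same level in both libraries in neither and a lower level in cKO cells in G2/M. Within the 4 cell classes described below, the G2/M ratio ran from 0.707 to 1.06 for *Hist1h1b* and from 0.748 to 1.03 for *Hist1h1e*. For each gene it was below 1 in 3 of the 4 classes. *Hist1h1c* was highest in neither, with 130.4 CPM in neither, 61.0 CPM in S and 72.7 CPM in G2/M in control, and 54.0, 16.1 and 22.0 CPM in cKO cells. Its S over neither ratio was 0.468 (0.429 to 0.510) in control and 0.298 (0.244 to 0.361) in cKO cells. *H1f0* had 295, 260 and 609 CPM in control and 336, 280 and 532 CPM in cKO cells, so it was high in G2/M and not in S.

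Core members also divided into those high and those low in the S and G2/M ranges. *Hist1h2ap* had 0.837 CPM in neither, 7.78 CPM in S and 15.0 CPM in G2/M in control, and 2.25, 19.1 and 27.3 CPM in cKO cells. The H4 gene *Hist1h4i* varied less, with 23.5, 37.1 and 49.4 CPM in control and 24.6, 36.3 and 42.4 CPM in cKO cells. *Hist1h2bc* went the other way, with 216 CPM in neither, 58.5 CPM in S and 100.3 CPM in G2/M in control, and 169, 39.4 and 48.4 CPM in cKO cells. *Hist3h2a* had 63.3, 45.8 and 80.6 CPM in control and 34.9, 10.1 and 15.1 CPM in cKO cells. Its G2/M over neither ratio was 1.27 (1.17 to 1.39) in control and 0.432 (0.363 to 0.513) in cKO cells, on opposite sides of 1. *Hist3h2ba* had 66.3, 48.2 and 97.2 CPM in control and 75.3, 39.99 and 56.7 CPM in cKO cells, and its G2/M over neither ratio was 1.47 (1.35 to 1.59) and 0.753 (0.680 to 0.835). Over all kept cells both Hist3 genes were therefore higher in G2/M than in neither in control and lower in cKO cells, sums that mix cell classes of different level and range share. Within the classes described below this did not always hold: in cKO cells *Hist3h2ba* had 36.2 CPM in neither and 39.4 CPM in G2/M in Epi basal-like cells, and 32.9 and 34.4 CPM in Epi suprabasal-like cells. In control, *Hist3h2a* had 85.1 and 81.2 CPM in HF WNTlo-like cells. Without the 4 most abundant members, the other 40 core members had a summed S over neither ratio of 2.11 in control and 2.56 in cKO cells, and a G2/M over neither ratio of 3.64 and 3.77.

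Among the replication-independent members, *H2afx* differed most between the ranges. In control it had 61.6 CPM in neither, 183 CPM in S and 582 CPM in G2/M, a G2/M over neither ratio of 9.45 (8.77 to 10.2). In cKO cells it had 61.3, 108 and 335 CPM, a ratio of 5.47 (4.99 to 6.01). *H2afz* had 1195, 2170 and 3235 CPM in control and 1351, 2402 and 3308 CPM in cKO cells. *H2afv* had 253, 335 and 675 CPM in control and 247, 330 and 632 CPM in cKO cells. *H3f3a* and *H2afj* varied little, with G2/M over neither ratios of 1.10 and 0.989 in control. *H2afy2* had a G2/M over neither ratio of 1.00 in control but was higher in S, with an S over neither ratio of 1.38 in control and 1.1996 in cKO cells.

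**Figure D3:**
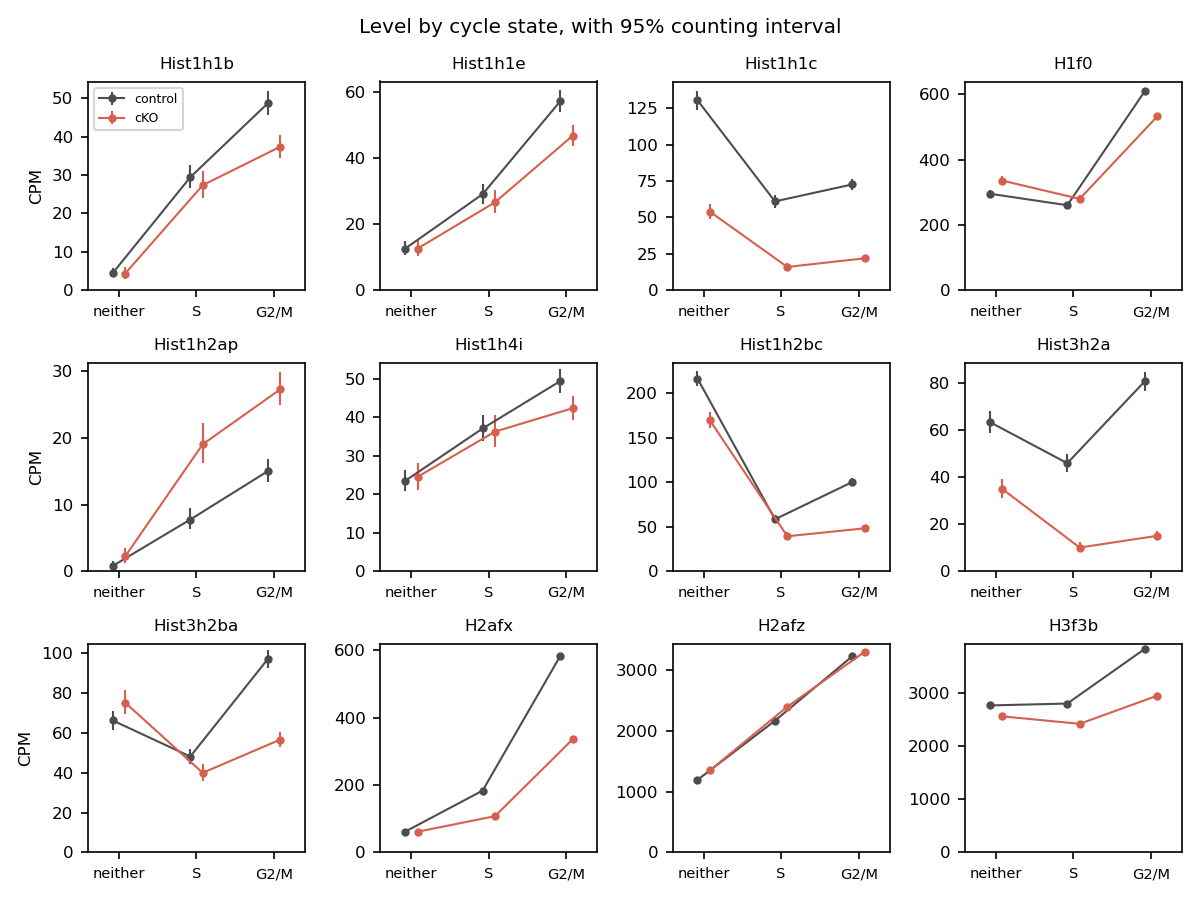
CPM of 12 members in cells of neither range, of the S range and of the G2/M range, for control (grey) and cKO (red); bars are 95% counting intervals and each panel starts at 0. *H2afx* has nearly the same level in both libraries in cells of neither range, 61.6 and 61.3 CPM, and 582 against 335 CPM in the G2/M range, while *Hist1h1c* and *Hist1h2bc* are highest in cells of neither range.

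**Figure D4:**
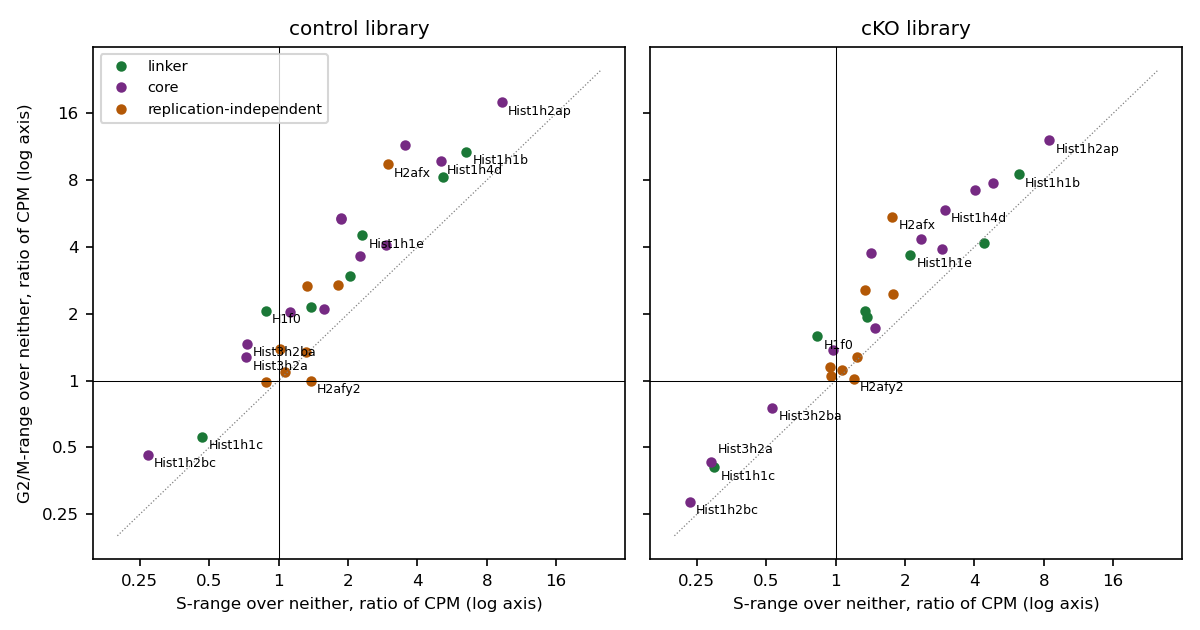
G2/M over neither ratio against S over neither ratio, both on log axes, for members with at least 200 UMIs over both libraries and more than 3 UMIs in cells of neither range, in the control library (left) and the cKO library (right); the dotted line marks equal ratios. Nearly all points lie above the line, and *Hist3h2a* and *Hist3h2ba* lie above 1 on the vertical axis in control and below 1 in cKO cells.

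Compared between libraries within 1 range, the ratios of *H2afx*, *Hist3h2a*, *Hist3h2ba* and *Hist1h2bc* were lowest in G2/M. For *H2afx* and *Hist3h2a* the intervals in S and G2/M overlap, so these ranges cannot be ordered, and only the difference from neither exceeds counting error. The cKO to control ratio of *H2afx* was 0.994 (0.885 to 1.12) in neither, 0.587 (0.544 to 0.633) in S and 0.576 (0.558 to 0.594) in G2/M. That of *Hist3h2a* was 0.552 (0.480 to 0.634), 0.221 (0.174 to 0.276) and 0.187 (0.164 to 0.214), and that of *Hist1h2bc* was 0.784 (0.733 to 0.837), 0.674 (0.592 to 0.767) and 0.482 (0.444 to 0.523). *Hist3h2ba* had ratios on both sides of 1, with 1.14 (1.02 to 1.26) in neither and 0.583 (0.539 to 0.630) in G2/M. Within the 4 cell classes described below, its ratios in neither ran from 0.826 to 1.21 and every interval included 1, so the 1.14 does not stand for each class. *Hist1h1c* was low in every range, at 0.414, 0.264 and 0.303, and *Hist1h2ap* was high in every range, at 2.69, 2.45 and 1.82. The whole core sum had ratios of 0.830 in neither, 0.778 in S and 0.611 in G2/M, the linker sum 0.955, 0.917 and 0.818, and the replication-independent sum 0.960, 0.941 and 0.885. Without the 4 most abundant members, the core ratios were 0.911 (0.769 to 1.08), 1.11 (0.997 to 1.23) and 0.943 (0.886 to 1.00). With *Hist1h2ap* also left out they were 0.862 (0.723 to 1.02), 0.926 (0.823 to 1.04) and 0.810 (0.755 to 0.868), so the direction in S turned on that gene.

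Cells were also grouped by type from marker genes, with the histone genes left out of the clustering. The classes Epi basal-like, Epi suprabasal-like, HF WNThi-like and HF WNTlo-like (HF, hair follicle) held 1099, 555, 699 and 844 control cells and 789, 432, 571 and 869 cKO cells. Merkel-like cells numbered 36 in control and 29 in cKO, and clusters with 1214 and 887 cells stayed unnamed, among them 1 led by hemoglobin genes. In Epi basal-like cells, 7 of 34 members with at least 20 UMIs were lower by 1.5-fold in cKO and 3 were higher, beside 4.49% and 8.75% of all genes. Cells in the G2/M range made up 25.6% of control and 34.6% of cKO Epi basal-like cells, so range and library shift together in these sums.

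The leading members kept their direction in all 4 classes. *Hist3h2a* had 51.7, 49.7, 70.5 and 75.1 CPM in the control cells of Epi basal-like, Epi suprabasal-like, HF WNThi-like and HF WNTlo-like classes, and 14.7, 15.0, 20.8 and 22.6 CPM in cKO cells. Its ratio ran from 0.285 to 0.302 over the 4 classes. *Hist1h1c* had 113, 75.8, 84.4 and 69.8 CPM in control and 28.9, 21.4, 30.0 and 28.3 CPM in cKO cells, with ratios from 0.255 in Epi basal-like to 0.405 in HF WNTlo-like cells. Its level was highest in Epi basal-like cells in control, while the cKO levels lay close together. *Hist1h2bc* had ratios from 0.475 to 0.756 and *Hist3h2ba* from 0.633 to 0.799. *Hist1h2ap* had 2.90, 8.70, 6.98 and 10.2 CPM in control and 10.1, 19.98, 17.5 and 20.5 CPM in cKO cells, with ratios from 2.02 in HF WNTlo-like to 3.503 in Epi basal-like cells. When the libraries were not centered before clustering, only 131 cKO cells were named Epi basal-like beside 1131 of the control, and the ratio there was 0.645 for *Hist3h2a*, 0.560 for *Hist1h1c*, 1.00 for *H2afx* and 4.03 for *Hist1h2ap*. *H2afj* was highest in Epi suprabasal-like cells of both libraries, at 399 and 451 CPM, and its ratio was between 1.13 and 1.29 in every class.

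**Figure D5:**
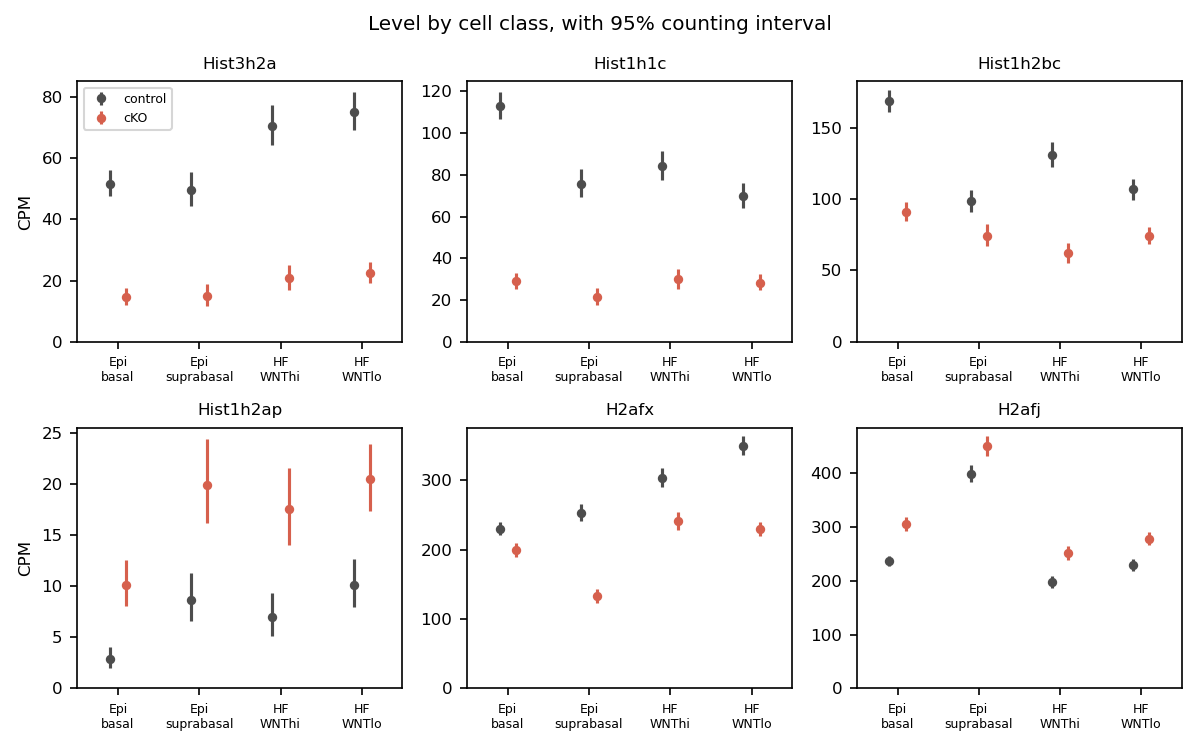
CPM of 6 members in the Epi basal-like, Epi suprabasal-like, HF WNThi-like and HF WNTlo-like classes for control (grey) and cKO (red); bars are 95% counting intervals and each panel starts at 0. The cKO points of *Hist3h2a* and *Hist1h1c* lie below the control points in all 4 classes, and those of *Hist1h2ap* and *H2afj* lie above them.

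The pattern of *H2afx* over the ranges was also seen within the classes. In cells of neither range, its level was 63.4, 63.7, 57.5 and 57.9 CPM in control and 65.5, 61.9, 57.6 and 52.9 CPM in cKO cells over the same 4 classes, with ratios from 0.913 to 1.03. In the G2/M range it was 520.5, 489.9, 527 and 681 CPM in control and 363, 194, 359 and 410.1 CPM in cKO cells, with ratios from 0.396 in Epi suprabasal-like to 0.697 in Epi basal-like cells. No interval of the 4 ratios in G2/M reached 1, the highest upper bound being 0.750, and every interval in neither included 1. *Hist3h2a* had ratios from 0.417 to 0.732 in neither, from 0.0327 to 0.317 in S and from 0.171 to 0.238 in G2/M. The 0.732, in Epi suprabasal-like cells, has an interval that includes 1 (0.496 to 1.07), and the 0.0327, in the same class, rests on 1 cKO UMI. *Hist3h2ba* had ratios from 0.826 to 1.21 in neither, where every interval included 1, and from 0.446 to 0.700 in G2/M. *Hist1h1c* had ratios from 0.304 to 0.487 in neither and from 0.241 to 0.365 in G2/M.

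The Merkel-like cells stood apart in level. *Hist1h2bc* had 937 CPM (828 to 1056) in the 36 control cells and 928 CPM (804 to 1064) in the 29 cKO cells, a ratio of 0.990 (0.821 to 1.19), and was thus several times higher than in any of the 4 classes. *Hist1h1c* had 289 and 329 CPM there, a ratio of 1.14 (0.818 to 1.58). *Hist3h2a* had 299 and 178 CPM, a ratio of 0.595 (0.397 to 0.878). Cells of neither range made up 72.2% of the control and 86.2% of the cKO Merkel-like cells.

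RNA outside cells was read from barcodes with 10 to 100 UMIs. The members with the largest differences were also present there, with 77.2 CPM of *Hist3h2a* in control and 23.9 CPM in cKO, 106 and 37.8 CPM of *Hist1h1c*, and 157 and 97.4 CPM of *Hist1h2bc*, each above the level in cells of the same library. *Hist1h1b* and *Hist1h1e* were lower outside cells than in them, with 6.22 and 9.66 CPM of *Hist1h1b* and 7.97 and 9.12 CPM of *Hist1h1e*. With 5% of each sum removed as free RNA, the core ratio was 0.713 and the linker ratio 0.899.

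Annotation separated the members only in part. Of the Hist members, 34 had the stem-loop in an annotated transcript, and 8 of these were lower and 2 higher by 1.5-fold in cKO cells, beside 4.51% and 7.68% of all genes, with a median log2 ratio of −0.16. Of the 14 without it, 6 were lower and 0 higher, with a median of −0.49. A poly(A) signal, AATAAA or ATTAAA in the last 50 bases of a transcript, was annotated for 14 Hist members, of which 3 were lower and 1 higher, and for 77.9% of protein coding genes. Of the 34 Hist members without it, 11 were lower and 1 higher. A missing loop here says only that the annotated transcript does not contain it: *Hist1h1a* and *Hist1h1b* are annotated over 741 and 743 bases without one. Several members share sequence with other genes, and reads that fit more than 1 gene are usually not counted. Of the stretches of 57 bases in *Hist1h2ap* transcripts, 93.0% occur in another gene, mainly *Hist1h2ao*, and for *Hist1h2ag* and *Hist1h2al* the shares are 78.6% and 61.8%, so their levels are uncertain. *Hist3h2a* overlaps *Trim17* on the same strand, and *Trim17* had 1 UMI in control and 0 in cKO cells. *Hist1h1e* overlaps *Hist1h2be*, and *H1fx* overlaps *Gm47286*.

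Genes that process and carry histones were taken as lists. Of 25 measured genes listed for histone mRNA 3′ end processing, decay and cap binding, 0 were lower and 5 higher by 1.5-fold in cKO cells, beside 4.51% lower and 7.68% higher over all genes, with a median log2 ratio of 0.01. The list also holds factors of ordinary mRNA cleavage and polyadenylation, such as *Papola* and *Pcf11*, so its counts are not particular to histone mRNA. *Lsm10*, a subunit of the U7 snRNP that cuts histone pre-mRNA, had the highest ratio, 39.7 CPM in the control library against 92.2 CPM in cKO (2.32, 2.19 to 2.46). Its partner subunit *Lsm11* had 13.2 and 22.2 CPM (1.68, 1.51 to 1.88). *Zfp473*, a zinc finger protein of the same processing reaction, had 0.889 and 1.73 CPM (1.95, 1.28 to 2.99). The cleavage factor subunits *Clp1* and *Cstf2t*, which serve ordinary mRNA, had ratios of 2.23 and 1.52. *Cpsf3*, the endonuclease of the cleavage complex, had the lowest, 31.3 and 24.4 CPM (0.778, 0.713 to 0.849). *Slbp* had 182 and 159 CPM (0.872, 0.842 to 0.903). Of 25 measured histone chaperones, 0 were lower and 0 higher, with a median log2 ratio of 0.02. Their ratios ran from 0.789 of *Nasp*, a chaperone of H3 and H4 and of linker histones, to 1.23 of *Supt16*, a subunit of the FACT complex. Between S and neither, 6 processing genes were higher by 1.5-fold in control and 5 in cKO cells, and 9 chaperones in each, beside 11.8% and 11% of all genes. *Slbp*, *Casp8ap2*, *Chaf1b*, *Nasp*, *Hjurp*, *Anp32e* and *Mcm2* are themselves part of the cycle scores, and outside these 4 of 23 processing genes were higher in S in control and 3 in cKO cells, and 5 of 20 chaperones in each.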

How the data were processed

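Epithelial cells of E17 mouse back skin were profiled with the 10x 3′ v2 kit, 1 library per condition. The deposited matrices hold UMI counts per gene and barcode that the authors made with Cell Ranger (2.0 in the submitters' processing notes) on mm10; the annotation release is not given in the sources used here. Barcodes with at least 1800 genes were kept. Members and lists were chosen with earlier results of these data known.

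UMIs were summed per library, cycle range or class and divided by the total (CPM). CPM, ratios and shares have exact Poisson, conditional binomial and Clopper-Pearson 95% intervals for counting error only. Ratios against 0 UMIs used a floor of 3 counts. The genes named were the members at or above 200 UMIs, those with the highest and the lowest ratio in each kind and pathway list, and the members at the 20 UMI minimum; *Hist4h4* and *Hist1h2bg*, the processing genes past 1.5-fold, *Trim17*, the sex-linked genes and *Krt14* were added after values were seen.

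Cells were scored with 42 S and 54 G2/M genes, and clustered with scanpy 1.11.5 (10 principal components, 20 neighbors, Leiden resolution 0.8, seed 0) after centering each library and leaving out the members and genes more than 1.5-fold apart between libraries. Marker scores for naming had minimums set after the clusters were seen, and classes rebuilt in this way can differ from those of the study. Scrublet called 6 control and 3 cKO cells and had not worked, so doublets were kept and an alternative left out the 4% with the highest scores. edgeR 4.0.16 in R 4.3.3 gave TMM factors only. Transcript sequences and annotation came from GENCODE vM21 (GRCm38, the build of mm10), where 83 of 85 IDs were found. Interval code was tested on simulated data. Python 3.11.15, numpy 2.4.6, scipy 1.17.1 and pandas 2.3.3 were used.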

Additional observations from a re-analysis of the deposited data

Results flagged for a closer look

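*Hist4h4*, an H4 gene on chromosome 6, had a cKO to control ratio of 0.642 (0.254 to 1.505) in HF WNThi-like cells, from 18 and 9 UMIs, and of 1.59 (0.855 to 3.04) in HF WNTlo-like cells, from 18 and 29 UMIs. The ratios pass the 1.5-fold limit in opposite directions, both intervals include 1, and the difference was not tested.

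*Hist1h2bg*, an H2B gene, had an S over neither ratio of 0.620 (0.182 to 1.95) in control, from 9 UMIs in neither and 6 in S, and of 1.61 (0.408 to 7.48) in cKO cells, where neither held 4 UMIs. The ratios pass the 1.5-fold limit in opposite directions, both intervals include 1, and the difference was not tested.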

How the results depend on the processing

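No paired analysis was possible because each condition has 1 library. Of the summed and counted results, 44 values under alternatives stayed within the limits set for a change and 19 moved. Members higher in cKO numbered 1 with TMM scaling, with at least 1000 genes per cell and without the 4% of cells with the highest doublet scores, 4 with at least 2500 genes and 6 with a minimum of 1 UMI, against 2. With a minimum of 200 UMIs, 5 of 28 members were lower, beside 1.47% of all genes of that depth. Of the same 28, 15 were higher in S in control and 12 in cKO cells. In Epi basal-like cells alone, 9 were higher in S in control and 5 in cKO cells. No share over all genes is given beside the other counts of this paragraph, so they show only how the counts depend on the settings. The summed linker ratio was 0.879 with TMM, 0.882 with median of ratios scaling and 0.917 with at least 2500 genes. The core ratio was 0.738 with at least 2500 genes. The replication-independent ratio was 0.915 with TMM, 0.918 with median of ratios scaling, 0.942 with reduced totals, 0.930 with at least 1000 genes and 0.944 with at least 2500 genes. Among 50 named ratios past 1.5-fold, the direction changed for *Hist2h3c2* in Epi basal-like cells (3.89 with clustering that did not center the libraries), and, in Epi basal-like cells alone, for S over neither of *Hist1h4i* (0.959) and *Hist1h2ag* (0.310) in control and *Hist1h3c* (0.806) in cKO cells. Of 65 within 1.5-fold, 18 changed side in some alternative, among them *Hist2h2be* in Epi basal-like cells (0.801, and 1.51 without centering), *H1fx* there (1.24 and 0.872), and S over neither in control of *H2afv*, *Hist1h1d* and *Hist2h2be*, as low as 0.875, 0.845 and 0.701. The cause was not tested. Of the other named values, 478 stayed and 88 moved. Clustering without centering put 1131 control and 131 cKO cells in the Epi basal-like class, where *H2afx* had a ratio of 1.00, *Hist3h2a* 0.645 and *Hist1h1c* 0.560. Members under 200 UMIs are limited by depth, and 1 library per condition leaves the spread between embryos unknown.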
